A study of Mus musculus with 12 samples.

Results

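The nuclear-encoded subunits of the oxidative phosphorylation (OXPHOS) complexes were taken from a table of gene FPKM values (fragments per kilobase of exon, scaled to library size) by symbol. Protein-coding rows whose names begin with Nduf and a subunit letter and number, Sdha to Sdhd, Uqcr, the nuclear Cox4 to Cox8 families or Atp5 made 85 members of 54532 rows. They comprised 37 subunits of complex I, 4 of complex II, 8 of complex III, 18 of complex IV and 18 of complex V. The libraries were RNA-seq of primary hepatocytes from 6-week-old mice. HKO cells carried a hepatocyte-specific knockout of G3bp1, and their controls came from G3bp1-Flox mice (Flox). Each genotype was given PA or BSA, which made 4 groups of 3 libraries each: HKO PA, HKO BSA, Flox PA and Flox BSA. The labels do not spell out PA or BSA, the Cre driver is not named, and no source used here states dose, duration or whether libraries of 1 group come from different mice. The p-values below therefore measure only the spread between these libraries, which may be technical. G3BP1 binds RNA and is known from stress granules, and the series text names NASH as the subject.

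Complexes I to IV form the electron transport chain of the inner mitochondrial membrane, and complex V, the ATP synthase, uses the proton gradient that complexes I, III and IV build. Complex II is wholly encoded in the nucleus, while the others also hold subunits made from the mitochondrial genome. Hepatocytes are rich in mitochondria, where the chain takes up electrons released by fatty acid oxidation. Most nuclear subunits are small proteins with short transcripts, so a difference between libraries that follows transcript length reaches them together.

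Promoters of the subunit genes were searched for 3 letter strings tied to factors known to act on respiratory genes, because the members were seen to move together in the comparisons below. The strings were GCGCATGCG for NRF1, CCGGAAG for the ETS factor GABPA and AAGATGGCG for YY1, each on both strands. RefSeq promoter windows (GRCm38.p6, 300 bases around the transcription start) were matched by symbol for 63 tested members with 68 windows. GCGCATGCG was in 11.8% of the members' windows, in 1.75% of all 32851 windows and in 3.9% of those of tested protein-coding genes. CCGGAAG was in 23.5% of the members' windows, against 8.86% and 19.1%. AAGATGGCG was in 10.3%, against 1.40% and 3.33%. In 4 windows below, shown because they differ in which strings they hold and in how their genes behaved, capitals mark the strings found. Uqcrh (chr4:116075021-116075320, minus strand) holds CCGGAAG on the reverse strand, Cox6a1 (chr5:115348909-115349208, minus strand) holds the NRF1 string and CCGGAAG, Ndufs4 (chr13:114388045-114388344, minus strand) holds AAGATGGCG and Uqcrc1 (chr9:108936398-108936697, plus strand) holds the NRF1 string. Uqcrh, Cox6a1 and Ndufs4 were higher in HKO PA than in Flox PA by the test below, and Uqcrc1 was not. Of the 26 genes with any of the strings 19 passed higher there, and of the 37 with none 22, while 16.9% of all tested genes did. In BSA, HKO against Flox, the order was reversed: 3 of the 26 and 10 of the 37 passed higher, while 9.63% of all tested genes did. A match is a run of letters in these windows and says nothing of binding.
Uqcrh: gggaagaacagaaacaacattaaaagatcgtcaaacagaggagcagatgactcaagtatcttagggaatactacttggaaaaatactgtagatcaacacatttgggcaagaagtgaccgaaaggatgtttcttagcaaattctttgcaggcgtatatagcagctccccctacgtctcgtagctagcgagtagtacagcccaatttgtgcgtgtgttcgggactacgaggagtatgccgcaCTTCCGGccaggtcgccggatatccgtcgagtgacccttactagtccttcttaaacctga
Cox6a1: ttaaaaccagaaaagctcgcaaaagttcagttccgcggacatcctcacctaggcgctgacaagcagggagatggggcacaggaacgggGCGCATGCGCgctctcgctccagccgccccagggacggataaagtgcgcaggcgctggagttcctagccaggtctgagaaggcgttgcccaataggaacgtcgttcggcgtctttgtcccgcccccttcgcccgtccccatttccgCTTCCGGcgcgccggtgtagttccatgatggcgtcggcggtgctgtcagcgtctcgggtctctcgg
Ndufs4: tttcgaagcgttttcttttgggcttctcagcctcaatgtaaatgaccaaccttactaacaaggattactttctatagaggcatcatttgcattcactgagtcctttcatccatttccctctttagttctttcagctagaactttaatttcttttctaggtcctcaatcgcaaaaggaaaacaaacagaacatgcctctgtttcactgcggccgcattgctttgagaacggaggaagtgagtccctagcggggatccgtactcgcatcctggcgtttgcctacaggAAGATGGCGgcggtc
Uqcrc1: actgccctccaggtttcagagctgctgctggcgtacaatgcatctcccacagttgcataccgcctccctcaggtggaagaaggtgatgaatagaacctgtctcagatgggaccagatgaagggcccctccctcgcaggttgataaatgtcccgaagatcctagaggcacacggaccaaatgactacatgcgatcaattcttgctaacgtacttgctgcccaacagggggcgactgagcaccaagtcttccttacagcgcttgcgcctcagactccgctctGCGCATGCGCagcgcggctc

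Reads in genes, computed from FPKM and gene length, ranged from 15020982 to 18418586 per library. G3bp1 was at 7.03 to 8.50 FPKM in the HKO libraries and at 37.7 to 45.7 in the Flox libraries. Summed hepatocyte markers (8 genes, Alb and Apoa1 among them) lay between 10880 and 21130 FPKM in HKO and between 7788 and 9001 in Flox libraries, so the labelled cell type was present in all 12. Summed macrophage markers lay between 43.3 and 73.4 FPKM in HKO and between 1015 and 1192 FPKM in Flox libraries, and 10 of 10 were lower in both HKO groups. Cholangiocyte markers summed to 7.85 to 9.20 FPKM in HKO and 4.17 to 4.83 in Flox, and neutrophil markers to 0.141 to 0.738 FPKM in HKO and 16.9 to 25.3 in Flox. Endothelial, stellate, lymphocyte and erythroid markers summed to at most 6.15 FPKM in every library, and among 4 muscle genes 2 were at 0 throughout. In bulk samples fewer cells of a type and less RNA per cell cannot be told apart. The part of these cell type differences in the subunit results was not tested. HKO PA library 1 stood apart from the other 11: it had the highest value of all for 67 of 78 tested subunits, and cytosolic ribosomal protein genes took 9.82% of its reads, against 5.98% to 7.58% in the others. Limma counts of members by complex and of related lists in PA are given with and without it. Other counts in PA include it unless stated, such as those by promoter string, by copies elsewhere in the genome or with the length trend removed.

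Of the 85 members 78 averaged 1 FPKM or more across all 12 libraries and were tested: 36 of complex I, 4 of complex II, 8 of complex III, 13 of complex IV and 17 of complex V. Cox7b2, Cox8b, Cox8c and a second row named Atp5o were at 0 in every library, and Cox4i2, Cox6b2 and Ndufa4l2 were too low. Mean FPKM ran from 1.48 to 657, and the highest member of each complex was Ndufa4 (251 FPKM), Sdhd (175), Uqcr10 (303), Cox6a1 (657) and Atp5b (385). The deposited length joins the exons of all isoforms and was at least 2 times the principal transcript for 32 tested members, which lowers their FPKM. Divided by principal transcript length instead, Cox4i1 led with 1066 FPKM, followed by Uqcrq with 969 and Atp5b with 851. Median level on that scale was 115 for complex I, 124 for complex II, 234 for complex III, 344 for complex IV and 262 for complex V. Within complexes I, IV and V the levels spanned 92.5-fold, 529-fold and 367-fold from the lowest to the highest tested member, against 4.49-fold in complex II.

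In PA, subunits of all 5 complexes were higher in HKO than in Flox hepatocytes. By limma on log2(FPKM + 1) with Benjamini-Hochberg adjustment over 9743 genes, 50 of 78 tested members rose and 0 fell at an adjusted p under 0.05, while 16.9% of all tested genes rose. The count was 22 of 36 in complex I, 3 of 4 in complex II, 6 of 8 in complex III, 9 of 13 in complex IV and 10 of 17 in complex V. Median log2 fold change was 0.63, 0.50, 0.68, 0.63 and 0.73 in complexes I to V, and 0.63 over the 78, against 0.003 over all genes. For 65 members every HKO PA library lay above every Flox PA library, which held for 26% of all tested genes. Without HKO PA library 1 the count was 36 higher and 1 lower, with a median of 0.44, while 11.2% of all genes were higher. By complex it was then 15 of 36 higher, 3 of 4, 4 of 8, 5 of 13 and 9 of 17. Uqcr10, Cox6a1, Cox7a1 and Atp5h, which are described with their complexes, no longer passed in that fit, with log2 fold changes of 0.44, 0.42, 0.40 and 0.39.

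**Figure D1:**
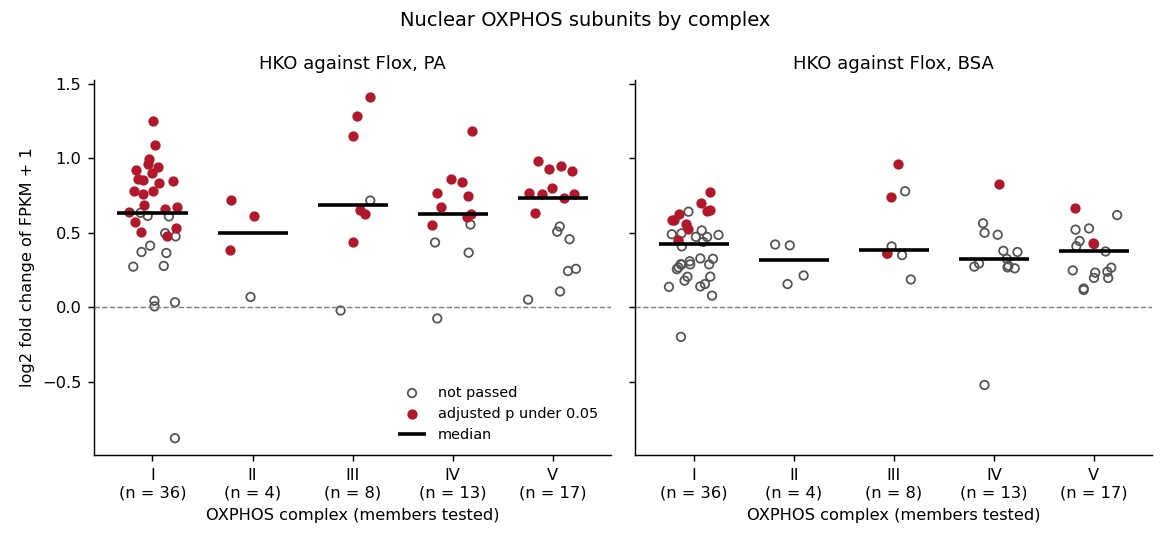
Log2 fold change of FPKM + 1 (y axis) of each of the 78 tested subunits by complex (x axis), HKO against Flox, in PA (left) and in BSA (right); filled points passed an adjusted p under 0.05 and bars are medians. In PA 50 points are filled and 75 lie above 0, and in BSA 16 are filled and 76 lie above 0.

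In BSA, HKO against Flox, the members that passed were mostly of complexes I and III, but the medians by complex were close. There 16 of 78 tested members rose and 0 fell by limma, while 9.63% of all tested genes rose. They were 10 of 36 members of complex I, 3 of 8 of complex III, 1 of 13 of complex IV and 2 of 17 of complex V, so the shares in complexes IV and V were near that of all genes. In complex II 0 of 4 passed by limma, 2 of 4 had an unadjusted p under 0.05, and 0 of 4 passed by limma-voom on the computed reads. The median log2 fold change was 0.42, 0.31, 0.38, 0.32 and 0.37 in complexes I to V. It was 0.37 over the 78, against 0.04 over all genes. For 43 members the HKO BSA libraries lay wholly above the Flox BSA libraries, as for 19.7% of all genes. The count depended on single libraries: it was 29 without HKO BSA library 2, 6 without HKO BSA library 3, 8 without Flox BSA library 1 and 4 without Flox BSA library 2. The shares of all tested genes in these fits are not given here, so the counts do not show whether subunits moved apart from other genes. In BSA the count was also 8 by limma-voom, against 5.54% of all genes, and in PA it was 40, against 11.6%. By complex the 8 were 4 of 36, 0 of 4, 2 of 8, 1 of 13 and 1 of 17. By limma-voom the medians over the 78 were 0.49 in PA and 0.22 in BSA, against -0.16 and -0.13 over all genes. Without both HKO libraries numbered 1, limma gave 16 of 36, 2 of 4, 4 of 8, 3 of 13 and 8 of 17 higher in BSA, against 19.6% of all genes. With all 12 libraries, 0 members were lower by limma at an unadjusted p under 0.05 in PA or in BSA. By limma-voom 0 fell at an adjusted p under 0.05. The test of a difference between PA and BSA is the interaction, given after the complexes.

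Complex I takes electrons from NADH and passes them to ubiquinone. Its 29 tested accessory subunits had a median log2 fold change of 0.66 in PA, HKO against Flox, with 19 higher, and its 7 core subunits, which carry the flavin and the iron-sulfur clusters or bind ubiquinone, had a median of 0.36 with 3 higher. Without HKO PA library 1 these were 0.46 with 12 higher and 0.36 with 3 higher. The core transcripts are longer, with a median of 1623 bases against 683. With the transcript length trend removed, the accessory subunits had a median of 0.28 in PA with 11 higher. The core subunits then had 0.24 with 2 higher. Ndufa1, a small membrane subunit encoded on the X chromosome, changed most. Ndufa1 had 299, 178 and 161 FPKM in the 3 HKO PA libraries, 138, 155 and 195 in HKO BSA, 83.1, 83.5 and 89.3 in Flox PA and 93.01, 90.9 and 97.6 FPKM in Flox BSA. All HKO libraries lay above all Flox libraries, and HKO PA library 1 was the highest. The log2 fold change was 1.25 (SE 0.20, adjusted p = 0.000361) in PA and 0.77 (SE 0.20, adjusted p = 0.014) in BSA. Ndufa5 had 87.4, 49.5 and 45.7 FPKM in HKO PA, 49.6, 41.98 and 52.2 in HKO BSA, 27.8, 30.2 and 23.1 in Flox PA and 29.8, 30.04 and 30.4 in Flox BSA. Its groups did not overlap by genotype, and Ndufa5, an accessory subunit of the matrix arm, was higher in HKO by 1.09 log2 units (SE 0.20, adjusted p = 0.00121) in PA and 0.65 log2 units (SE 0.20, adjusted p = 0.0374) in BSA. Ndufb9 had 189.7, 128 and 129 FPKM in HKO PA, 142, 103 and 126 in HKO BSA, 74.6, 83.7 and 75.4 in Flox PA and 78.3, 74.3 and 73.3 in Flox BSA. Ndufb9, an accessory subunit of the membrane arm, rose in HKO by 0.90 log2 units (SE 0.17, adjusted p = 0.00111) in PA and 0.70 log2 units (SE 0.17, adjusted p = 0.00824) in BSA.

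Ndufa4, the member with the highest FPKM among those named as complex I, is known to sit in complex IV. Ndufa4 had 472, 301 and 283 FPKM in HKO PA, 323, 230.1 and 283 in HKO BSA, 185, 175 and 166 in Flox PA and 195, 191 and 204 in Flox BSA. It was higher in HKO PA than in Flox PA by 0.96 log2 units (SE 0.19, adjusted p = 0.00153) and did not pass in BSA, with 0.49 log2 units (SE 0.19, adjusted p = 0.081). Among the core subunits, Ndufv2, which binds an iron-sulfur cluster of the NADH-oxidizing module, had the highest log2 fold change in PA. Ndufv2 had 81.6, 50.5 and 48.5 FPKM in HKO PA, 46.2, 38.97 and 48.5 in HKO BSA, 31.6, 29.4 and 29.2 in Flox PA and 36.5, 34.3 and 37.9 in Flox BSA. Its log2 fold change was 0.94 (SE 0.17, adjusted p = 0.00119) in PA and 0.29 (SE 0.17, adjusted p = 0.29) in BSA. The accessory subunits Ndufa8 and Ndufa10 had log2 fold changes near 0 in PA, at 0.04 and 0.03. Ndufa10 had 43.9, 39.7 and 40.9 FPKM in HKO PA, 50.1, 43.1 and 39.7 in HKO BSA, 37.7, 41.2 and 42.8 in Flox PA and 36.7, 33.3 and 35.2 in Flox BSA. In PA the HKO and Flox libraries of Ndufa10 overlapped, while in BSA every HKO library lay above every Flox library, at 0.32 log2 units (SE 0.12, adjusted p = 0.0798).

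Ndufa12 went against the rest of complex I. Ndufa12 had 65.8, 20.2 and 23.7 FPKM in HKO PA, 22.5, 19.2 and 34.5 in HKO BSA, 73.2, 60.4 and 46.8 in Flox PA and 18.6, 66.04 and 18.4 in Flox BSA. High and low libraries were mixed within HKO PA and Flox BSA, and the log2 fold change of -0.88 (SE 0.47, adjusted p = 0.158) in PA did not pass. Without HKO PA library 1 it was -1.40 log2 units (SE 0.44) with an adjusted p of 0.0351. The processed pseudogene Gm15920 shares 36.2% of the Ndufa12 transcript at 95% identity or more. In Flox BSA, Gm15920 had 119.7, 63.1 and 102 FPKM where Ndufa12 had 18.6, 66.0 and 18.4, so the copy was low in the library where the gene was high. In HKO PA, Gm15920 had 182, 138 and 167 FPKM, and library 1, where Ndufa12 was high, was there the highest for the copy too. Gm15920 had 185, 123 and 110.5 FPKM in HKO BSA and 61.9, 81.5 and 75.1 in Flox PA. Reads of both together ranged from 78.9 to 150.1 RPM (computed reads scaled to the library total) in HKO and from 73.4 to 151.1 in Flox libraries. No source used here states how reads matching both were assigned, so the level of Ndufa12 is uncertain.

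Complex II, succinate dehydrogenase, links the citric acid cycle to the chain and has 4 subunits. The catalytic matrix subunits are Sdha, which binds the flavin, and Sdhb, which carries iron-sulfur clusters, and Sdhc and Sdhd anchor them in the membrane. Sdhd had 273, 228 and 221 FPKM in HKO PA, 197, 156 and 188 in HKO BSA, 134, 151 and 152 in Flox PA and 130.5, 125 and 149 in Flox BSA. Sdhd was higher in every HKO library than in any Flox library, by 0.72 log2 units (SE 0.14, adjusted p = 0.00167) in PA and by 0.41 log2 units (SE 0.14, adjusted p = 0.052) in BSA, where it did not pass. Sdhb had 191, 137 and 134 FPKM in HKO PA, 150.3, 102 and 124 in HKO BSA, 97.6, 104 and 96.3 in Flox PA and 92.3, 91.3 and 93.5 in Flox BSA. HKO lay above Flox within PA and within BSA for Sdhb, whose log2 fold changes there were 0.61 (SE 0.16, adjusted p = 0.0115) and 0.42 (SE 0.16, adjusted p = 0.089). Sdha had 39.8, 40.3 and 37.4 FPKM in HKO PA, 38.4, 42.5 and 41.04 in HKO BSA, 32.9, 28.3 and 28.4 in Flox PA and 34.8, 36.3 and 33.7 in Flox BSA. Every HKO library of Sdha lay above every Flox library, and Sdha rose in PA, by 0.38 log2 units (SE 0.11, adjusted p = 0.0193), and had 0.21 log2 units (SE 0.11, adjusted p = 0.22) in BSA. Sdhc had 77.7, 71.5 and 77.5 FPKM in HKO PA, 89.02, 55.9 and 65.7 in HKO BSA, 69.2, 78.1 and 69.04 in Flox PA and 63.3, 61.6 and 60.5 in Flox BSA. Sdhc overlapped between HKO and Flox in PA and in BSA, with 0.07 log2 units (SE 0.15, adjusted p = 0.755) in PA. Sdhc and Sdha have the longest transcripts of all members, 3171 and 2900 bases.

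Complex III, the cytochrome bc1 complex, passes electrons from ubiquinol to cytochrome c. In PA it held the member with the highest log2 fold change, Uqcrc2, and a member near 0, Uqcrc1, which are its paired core proteins on the matrix side. Uqcrc2 had 95.01, 76.6 and 76.00 FPKM in the 3 HKO PA libraries, 37.6, 85.6 and 90.1 in HKO BSA, 31.1, 26.3 and 33.7 in Flox PA and 33.7, 31.97 and 51.9 FPKM in Flox BSA. HKO PA lay wholly above Flox PA, but HKO BSA library 1 lay inside the Flox range. The log2 fold change was 1.41 (SE 0.28, adjusted p = 0.00186) in PA and 0.78 (SE 0.28, adjusted p = 0.067) in BSA. Uqcrc1 had 98.5, 82.6 and 94.9 FPKM in HKO PA, 122, 73.6 and 88.5 in HKO BSA, 93.3, 95.5 and 91.05 in Flox PA and 87.1, 79.4 and 77.9 in Flox BSA. The Uqcrc1 groups overlapped, with -0.02 log2 units (SE 0.16, adjusted p = 0.925) in PA and 0.19 log2 units (SE 0.16, adjusted p = 0.479) in BSA. The 5 small subunits had a median log2 fold change of 0.72 in PA with 4 higher, and 0.44 with 2 higher without HKO PA library 1. Uqcrb had 185, 131 and 97.8 FPKM in HKO PA, 94.5, 113 and 141 in HKO BSA, 55.9, 60.7 and 47.2 in Flox PA and 63.6, 55.7 and 56.3 in Flox BSA. Uqcrb, which helps form a ubiquinone site, rose by 1.28 log2 units (SE 0.21, adjusted p = 0.000427) in PA and 0.96 log2 units (SE 0.21, adjusted p = 0.00459) in BSA. Uqcrh had 310.3, 195 and 179 FPKM in HKO PA, 176, 147 and 181 in HKO BSA, 100.2, 104 and 94.1 in Flox PA and 103, 91.1 and 106 in Flox BSA. Uqcrh, the hinge protein near cytochrome c1, rose by 1.15 log2 units (SE 0.18, adjusted p = 0.000344) in PA and 0.74 log2 units (SE 0.18, adjusted p = 0.0105) in BSA, and no HKO value of either gene lay below a Flox value. Uqcr10 had 517, 343 and 323 FPKM in HKO PA, 379, 261 and 323 in HKO BSA, 269, 248 and 220.1 in Flox PA and 259, 248 and 240.2 in Flox BSA. Uqcr10, the small subunit with the highest FPKM of the complex, rose in PA by 0.65 log2 units (SE 0.19, adjusted p = 0.0158) and not in BSA, at 0.35 log2 units (SE 0.19, adjusted p = 0.219). The Rieske iron-sulfur protein Uqcrfs1 rose in both, by 0.44 log2 units (SE 0.12, adjusted p = 0.0118) and 0.36 log2 units (SE 0.12, adjusted p = 0.0444). Uqcrb has 3 near-identical copies elsewhere in the genome, so its level is uncertain.

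**Figure D2:**
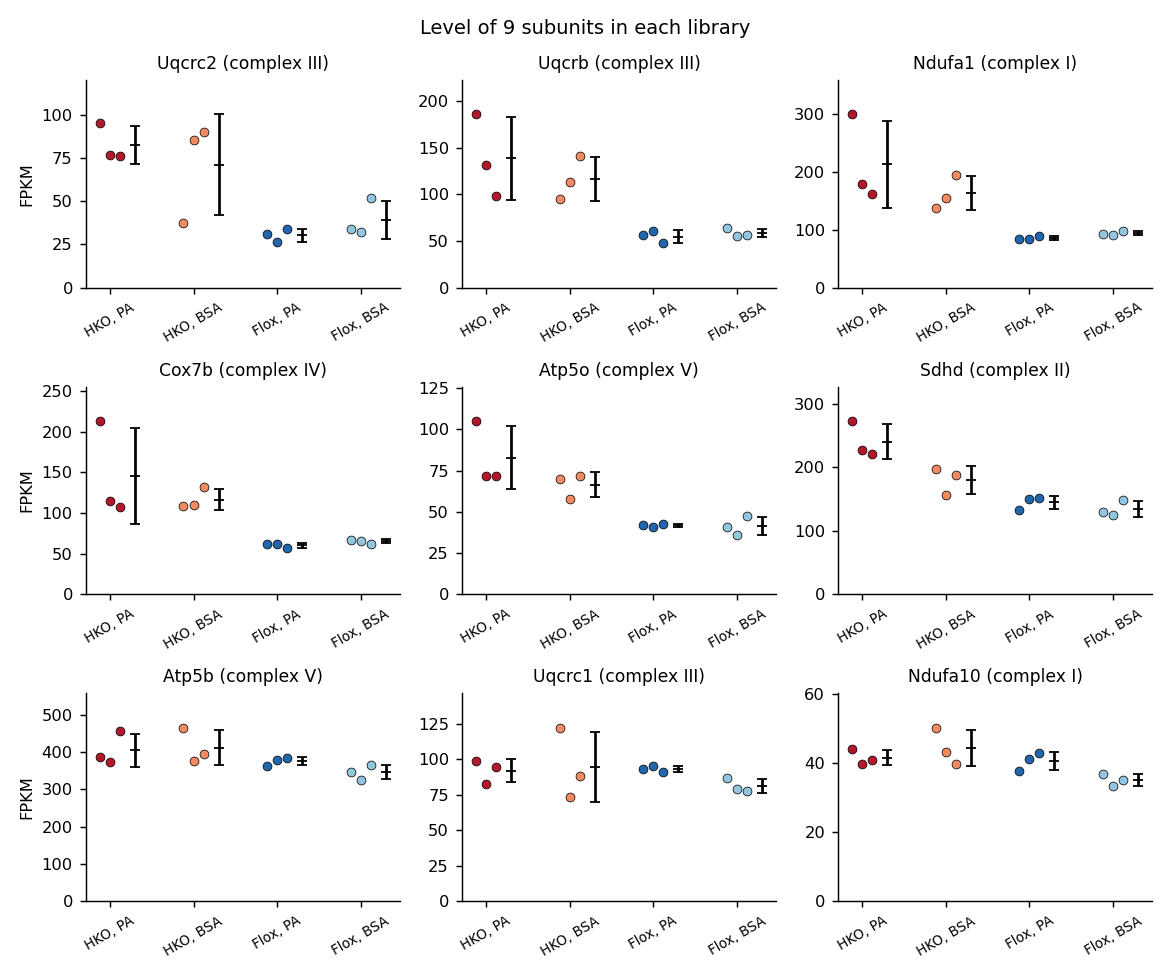
FPKM (y axis, from 0) of 9 subunits in each of the 12 libraries, in the order HKO PA, HKO BSA, Flox PA and Flox BSA; points are libraries 1, 2 and 3 from left to right, and the bar beside them is the mean with its SD (n = 3). Uqcrc2, Uqcrb, Ndufa1, Cox7b, Atp5o and Sdhd are higher in HKO PA than in Flox PA, while Atp5b, Uqcrc1 and Ndufa10 overlap there.

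Complex IV, cytochrome c oxidase, reduces oxygen, and its nuclear subunits surround a core made by the mitochondrial genome. Of its 13 tested members 12 had every HKO PA library above every Flox PA library, as did 26% of all tested genes. Cox7b had 213, 115 and 108 FPKM in the 3 HKO PA libraries, 108, 110.2 and 132 in HKO BSA, 61.9, 62.1 and 56.6 in Flox PA and 66.8, 66.2 and 62.3 FPKM in Flox BSA. No HKO value of Cox7b lay below a Flox value, and the log2 fold change was 1.19 (SE 0.21, adjusted p = 0.000734) in PA and 0.83 (SE 0.21, adjusted p = 0.0112) in BSA. Cox7b is a small membrane subunit needed for assembly of the complex. Cox7c had 442, 290.1 and 314 FPKM in HKO PA, 302, 232 and 257 in HKO BSA, 207, 196 and 165 in Flox PA and 221, 224 and 212 in Flox BSA. Cox7c, another small membrane subunit, rose in PA by 0.86 log2 units (SE 0.17, adjusted p = 0.00171), and had 0.26 log2 units (SE 0.17, adjusted p = 0.317) in BSA. Cox6a1 had 1088, 721 and 738 FPKM in HKO PA, 909, 546 and 729 in HKO BSA, 569, 543 and 527 in Flox PA and 525, 515 and 473 in Flox BSA. Cox6a1, the form of subunit VIa found outside muscle, had the highest FPKM of all members and rose in PA by 0.61 log2 units (SE 0.20, adjusted p = 0.0275), with 0.50 log2 units (SE 0.20, adjusted p = 0.091) in BSA. Cox4i1 was 0.43 log2 units higher in PA and did not pass (adjusted p = 0.101). Cox7b and Cox7c have 2 and 3 near-identical copies, and their levels are uncertain for that reason.

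Paralogs known from muscle, lung or testis were low or at 0. Cox6a2 made up 0.457% to 1.76% of the summed FPKM of Cox6a1 and Cox6a2, and Cox7a1 0.180% to 0.422% of that of Cox7a1, Cox7a2 and Cox7a2l. Cox4i1 held at least 99.97% of its pair with Cox4i2, Cox6b1 at least 99.9% of its pair with Cox6b2, and Cox8b and Cox8c had 0 reads in all 12 libraries. Cox6a2 had 6.68, 3.31 and 3.90 FPKM in HKO PA, 5.40, 2.61 and 4.52 in HKO BSA, 5.96, 5.04 and 3.51 in Flox PA and 5.53, 5.13 and 8.46 in Flox BSA. These Cox6a2 libraries overlapped, and its log2 fold change was -0.08 (SE 0.26, adjusted p = 0.843) in PA and -0.52 (SE 0.26, adjusted p = 0.188) in BSA. It passed as lower in BSA in 4 alternative fits, among them -0.68 with the transcript length trend removed (adjusted p = 0.0289) and, with library 1 of each HKO group left out, -0.70 (adjusted p = 0.0318). Cox7a1 had 2.92, 1.98 and 1.73 FPKM in HKO PA, 1.57, 1.30 and 1.52 in HKO BSA, 1.23, 1.11 and 1.17 in Flox PA and 0.684, 0.902 and 1.67 in Flox BSA. Cox7a1 rose in PA by 0.55 log2 units (SE 0.17, adjusted p = 0.022), on 7 to 21 reads per library. Cox7a2, its counterpart in liver, had 0.55 log2 units (SE 0.23, adjusted p = 0.0783) in PA, and Cox7a2l, which takes part in supercomplexes, rose there by 0.63 log2 units (SE 0.14, adjusted p = 0.00357). Cox7a2l had 318, 257 and 255 FPKM in HKO PA, 218, 200.4 and 243 in HKO BSA, 168, 179 and 188 in Flox PA and 173, 161 and 193 in Flox BSA. Ndufa4l2, a paralog of Ndufa4, had 46 reads in HKO PA library 1 and 47 in HKO BSA library 1, and 0 to 2 in the other 4 HKO libraries. It had 11 to 22 reads in Flox PA and 0 to 6 in Flox BSA, and was too low to test.

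Complex V makes ATP, with an F1 head in the matrix, a c ring in the membrane and a peripheral stalk that holds them together. The parts differed in count. In PA all 4 tested stalk subunits (Atp5f1, Atp5h, Atp5j and Atp5o) rose, with a median log2 fold change of 0.87, and 3 of the 4 small membrane subunits did, with a median of 0.84. In the F1 head 2 of 5 rose, with a median of 0.46. In the c ring 0 of 3 passed by limma or by limma-voom and 1 had an unadjusted p under 0.05, with a median of 0.26. Without HKO PA library 1, 3 of 4 stalk subunits, 3 of 4 small membrane subunits, 2 of 5 F1 subunits and 0 of 3 of the c ring passed, with medians of 0.67, 0.55, 0.25 and 0.15. Atp5f1 had 87.6, 57.9 and 49.7 FPKM in HKO PA, 36.5, 56.7 and 64.8 in HKO BSA, 32.9, 31.7 and 29.9 in Flox PA and 36.2, 36.5 and 41.5 in Flox BSA. Atp5f1, subunit b of the stalk, rose by 0.98 log2 units (SE 0.22, adjusted p = 0.00371) in PA and had 0.42 log2 units (SE 0.22, adjusted p = 0.2) in BSA, where HKO library 1 lay inside the Flox range. Atp5o had 105, 71.8 and 71.8 FPKM in HKO PA, 69.8, 57.7 and 71.6 in HKO BSA, 42.1, 40.9 and 42.4 in Flox PA and 40.96, 36.3 and 47.4 in Flox BSA. Atp5o, the stalk protein that binds the F1 head (OSCP), rose by 0.95 log2 units (SE 0.16, adjusted p = 0.000646) in PA and 0.66 log2 units (SE 0.16, adjusted p = 0.00985) in BSA, and its HKO and Flox libraries did not overlap. Of its exon bases 47.9% overlap other genes, the second Atp5o row among them, and the pseudogene Gm5436 copies 76.7% of its transcript, so its level is uncertain. Atp5f1 has 2 near-identical copies, over 52.6% of its transcript, and its level is uncertain too.

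In the F1 head, Atp5c1, the rotating gamma subunit, rose in PA and in BSA. Atp5c1 had 239, 191 and 177 FPKM in HKO PA, 166, 148 and 179 in HKO BSA, 115, 122 and 124 in Flox PA and 117, 112 and 137 in Flox BSA. Its log2 fold change was 0.73 (SE 0.14, adjusted p = 0.00169) in PA and 0.43 (SE 0.14, adjusted p = 0.0489) in BSA, close to the threshold. The catalytic beta subunit Atp5b and its partner alpha, Atp5a1, did not pass. Atp5b had 387, 373 and 456 FPKM in HKO PA, 465, 376 and 395 in HKO BSA, 363, 379 and 384 in Flox PA and 347, 326 and 365 in Flox BSA. Atp5a1 had 247, 275 and 328 FPKM in HKO PA, 287, 271 and 283 in HKO BSA, 252, 269 and 297 in Flox PA and 234, 234 and 267 in Flox BSA. In PA the HKO and Flox libraries of both overlapped, with 0.10 log2 units (SE 0.13, adjusted p = 0.564) for Atp5b and 0.05 log2 units (SE 0.14, adjusted p = 0.8) for Atp5a1. In BSA both were higher in each HKO library than in any Flox BSA library, without passing, at 0.25 log2 units (SE 0.13, adjusted p = 0.226) and 0.20 log2 units (SE 0.14, adjusted p = 0.358). The c ring is encoded by Atp5g1, Atp5g2 and Atp5g3, which give the same mature protein. They held 10.6% to 15.4%, 31.2% to 38.2% and 46.5% to 55.3% of their summed FPKM. Atp5g1 had 79.2, 46.5 and 48.7 FPKM in HKO PA, 67.2, 33.8 and 44.6 in HKO BSA, 42.95, 41.3 and 32.03 in Flox PA and 43.9, 39.00 and 39.2 in Flox BSA. Atp5g2 had 197, 120.0 and 113 FPKM in HKO PA, 164, 91.9 and 117 in HKO BSA, 119.5, 128 and 105 in Flox PA and 121, 108 and 106 in Flox BSA. Atp5g3 had 240.0, 184 and 199 FPKM in HKO PA, 205, 148 and 167 in HKO BSA, 175, 178 and 165 in Flox PA and 156, 137 and 145 in Flox BSA. None of the 3 passed in PA, with log2 fold changes of 0.54, 0.24 and 0.26, and Atp5g2 shares its whole transcript with pseudogene copies.

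Over all tested genes, differences between HKO and Flox moved with transcript length. The median principal transcript of tested members is 737 bases, against 2359 bases over all tested genes, and in PA the log2 fold change of all genes, HKO against Flox, fell with length (Spearman's rho -0.40 over 9736 genes, which share libraries and are not replicates). Over the 78 subunits rho was -0.19 in PA and 0.01 in BSA, where the 9736 genes had -0.24. Other genes of 500 to 1000 bases had a median of 0.37 in PA and 0.14 in BSA. The 40 members of that class had 0.63 and 0.37. Among other genes of 1500 to 2000 bases the medians were 0.09 and 0.11, and the 9 members of that length, Uqcrc2, Ndufv2 and Atp5f1 among them, had 0.85 and 0.42. With the trend on transcript length removed from the log2 values, 35 of 78 members were higher in HKO PA with all 12 libraries in the fit, against 14.8% of all genes, with a median of 0.28. The same fit for BSA gave 22 higher and 1 lower (Cox6a2), against 9.9% of all genes higher, with a median of 0.24. By complex the counts in PA were then 13 of 36, 3 of 4, 4 of 8, 6 of 13 and 9 of 17. Uqcrc2 kept a log2 fold change of 1.34, Uqcrb 0.89, Cox7b 0.87, Ndufa1 0.84, Atp5f1 0.84 and Uqcrh 0.75 in that fit, all with an adjusted p under 0.05. Uqcr10 and Cox6a1 no longer passed, at 0.24 and 0.22. The log2 fold change in PA, HKO against Flox, also fell with GC content (Spearman's rho -0.36 over the 9736 genes and -0.33 over the subunits). What either trend reflects was not tested.

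**Figure D3:**
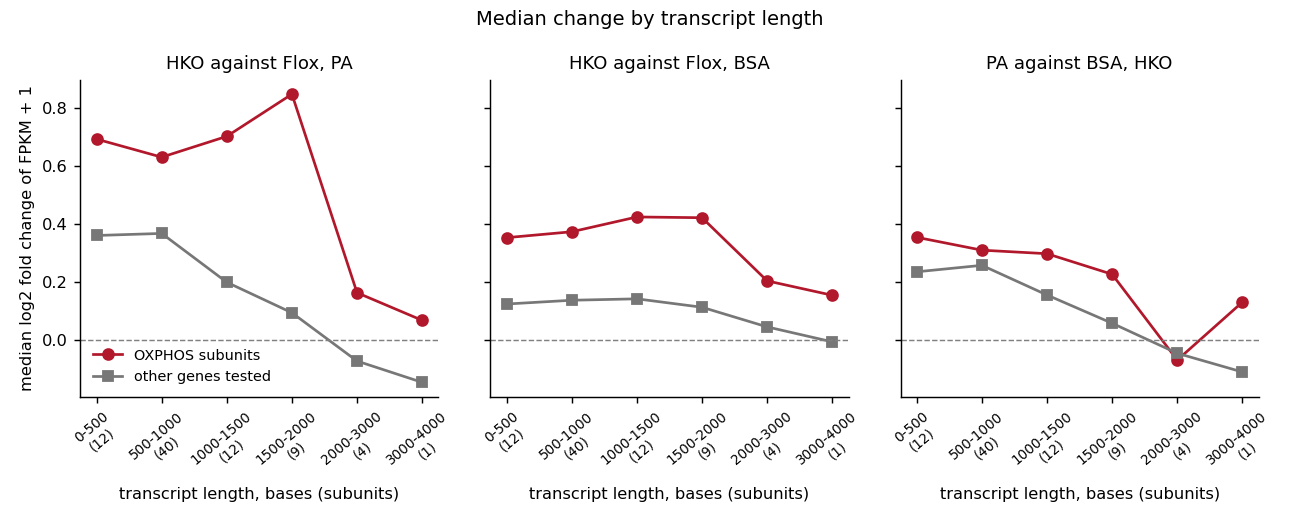
Median log2 fold change of FPKM + 1 (y axis) by class of principal transcript length (x axis, number of subunits in brackets) for subunits and for other tested genes, HKO against Flox in PA, in BSA, and PA against BSA in HKO. Subunits lie above other genes in every class for HKO against Flox, while for PA against BSA in HKO they lie below other genes at 2000 to 3000 bases; the class of 3000 to 4000 bases holds 1 subunit.

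Members with and without near-identical copies elsewhere in the genome were counted apart. Of all tested genes 16.9% rose in PA and 9.63% in BSA. Of the 55 tested members with no copy 33 were higher in PA (median 0.61) and 11 in BSA, HKO against Flox, and of the 23 with a copy 17 (median 0.73) and 5. Of the 36 members with no copy and no exon shared with another gene, 25 were higher in PA (median 0.63) and 8 in BSA (median 0.37). Members with copies also include Atp5c1, Atp5g1, Uqcr10, Ndufb3 and Cox7a2l, where the copies cover 31.2% to 59.5% of the transcript. Of the exon bases of Uqcrc2 and Ndufb9, 19.7% and 19.5% overlap another gene. The levels of these members are uncertain as well.

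The 6 HKO libraries differed among themselves more than the 6 Flox libraries. Set against the mean of Flox BSA, the median subunit was 1.11, 0.48 and 0.49 log2 units higher in HKO PA libraries 1, 2 and 3, and 0.60, 0.14 and 0.39 in HKO BSA. It was 0.08, 0.09 and -0.05 in Flox PA and between -0.04 and 0.03 in Flox BSA. All genes had medians between -0.01 and 0.04 in these libraries. The median SD of a subunit on the log2 scale was 0.38 in HKO PA and 0.27 in HKO BSA, against 0.10 in Flox PA and 0.09 in Flox BSA. As a share of reads, the 85 members took 1.90%, 1.59% and 1.61% in HKO PA, 1.70%, 1.28% and 1.44% in HKO BSA, 1.36%, 1.33% and 1.25% in Flox PA, and 1.31%, 1.29% and 1.25% in Flox BSA. HKO BSA library 2 thus fell inside the Flox range on that measure. Library 1 was the highest of HKO PA for 73 of 78 members and the highest of HKO BSA for 58. It was the lowest of HKO BSA for 9 members, which include Uqcrc2, Uqcrb, Ndufa1, Cox7b and Atp5f1. Without both HKO libraries numbered 1, 51 members were higher and 1 lower in PA, and 33 higher and 1 lower in BSA. In that fit 18.4% of all tested genes were higher in PA and 19.6% in BSA.

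**Figure D4:**
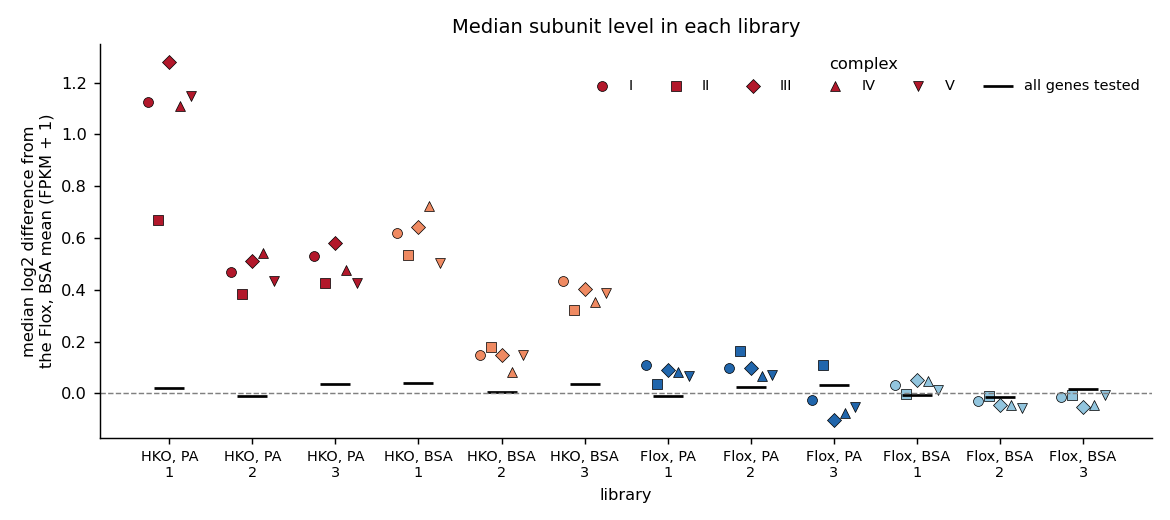
Median log2 difference of the subunits of each complex from the mean of the Flox BSA libraries (y axis, log2 of FPKM + 1) in each of the 12 libraries (x axis), with the median of all tested genes as a bar. HKO PA library 1 lies at 1.11 for all subunits together, the other HKO libraries between 0.14 and 0.60, and the Flox libraries between -0.05 and 0.09.

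No subunit was called between PA and BSA in either genotype. In HKO, PA against BSA, 0 of 78 passed by limma and 0 by limma-voom, while 2.94% of all tested genes passed in either direction. With an unadjusted p under 0.05 there were 10 by limma, all higher in PA, and 13 by limma-voom. For 8 members every HKO PA library lay above every HKO BSA library, against 9.1% of all tested genes. The median log2 fold change was 0.30. It was 0.10 without HKO PA library 1 and 0.09 with the transcript length trend removed, and other genes of 500 to 1000 bases had 0.26. The smallest p in each complex belonged to Ndufb3, Sdhd, Uqcrh, Cox7a2l and Atp5s. Ndufb3 had 87.3, 66.8 and 68.04 FPKM in HKO PA, 59.7, 42.98 and 58.01 in HKO BSA, 44.3, 41.1 and 41.6 in Flox PA and 40.1, 42.7 and 36.6 in Flox BSA. Ndufb3, a membrane arm subunit, had 0.46 log2 units (SE 0.15, adjusted p = 0.114) in HKO, and its HKO PA libraries lay above its HKO BSA libraries. Atp5s had 3.91, 2.50 and 1.88 FPKM in HKO PA, 1.71, 1.68 and 1.76 in HKO BSA, 1.10, 1.01 and 1.39 in Flox PA and 0.922, 1.0 and 1.40 in Flox BSA. Atp5s, a coupling factor of low level, had 0.43 log2 units (SE 0.17, adjusted p = 0.164). Without HKO PA library 3 Atp5s passed, at 0.61 (adjusted p = 0.037). For Sdhd, Uqcrh and Cox7a2l the log2 fold changes were 0.41, 0.40 and 0.32, with adjusted p of 0.124, 0.227 and 0.201.

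In Flox, PA against BSA, 0 of 78 passed by limma and by limma-voom, against 2.21% of all tested genes in either direction, and 1 (Ndufa12) had an unadjusted p under 0.05. The median log2 fold change was 0.05. These fits take the spread from all 4 groups, and the HKO libraries spread more than the Flox libraries. Without both HKO libraries numbered 1, 0 of 78 passed by limma in Flox, with a smallest adjusted p of 0.0786. At an unadjusted p under 0.05, 6 members were then higher and 5 lower. Of all 9743 genes 762 rose and 594 fell in that fit. The smallest p in each complex belonged to Ndufa12, Sdha, Uqcrc1, Cox5a and Atp5g3, with log2 fold changes of 1.03, -0.22, 0.19, 0.21 and 0.24 and adjusted p from 0.310 to 0.563. Cox5a had 80.2, 62.6 and 59.03 FPKM in HKO PA, 64.4, 45.5 and 55.8 in HKO BSA, 51.7, 52.9 and 49.9 in Flox PA and 46.8, 41.8 and 44.9 in Flox BSA. Cox5a, which binds the matrix face of cytochrome c oxidase, was higher in every Flox PA library than in any Flox BSA library and did not pass. The interaction, the PA effect in HKO minus that in Flox, passed for 0 of 78 members by limma and by limma-voom, against 0.267% of all tested genes. With an unadjusted p under 0.05 there were 4 by limma-voom and 2 by limma, Ndufv2 at 0.65 log2 units (SE 0.25, adjusted p = 0.22) and Cox7c at 0.60 log2 units (SE 0.24, adjusted p = 0.234). The interaction of Uqcrc2 was 0.63 log2 units (SE 0.40, adjusted p = 0.399), that of Atp5f1 0.56 log2 units (SE 0.31, adjusted p = 0.349) and that of Sdhd 0.31 log2 units (SE 0.20, adjusted p = 0.415). The median interaction was 0.29, 0.05 without HKO PA library 1 and 0.08 with the transcript length trend removed. The counts of 50 in PA and 16 in BSA are therefore not shown to differ.

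The mitochondrially encoded partners of these subunits were also higher in HKO. HKO against Flox, all 13 passed higher in PA (median 1.76), against 16.9% of all tested genes. Without HKO PA library 1 there were 12 (median 1.55), against 11.2%. In BSA 12 of 13 passed higher (median 1.29), against 9.63%. Reads on mitochondrial genes took 4.10% to 8.20% of a library in HKO and 2.21% to 4.34% in Flox. Per complex, the 7 mitochondrial genes of complex I had 5.90, 6.20 and 4.67 reads for each nuclear complex I read in HKO PA and 3.87, 9.73 and 8.46 in HKO BSA. The same ratio was 3.17, 2.87 and 3.24 in Flox PA and 3.56, 3.61 and 5.30 in Flox BSA. HKO BSA library 1, where most nuclear subunits were the highest of their group, had the lowest ratio of the HKO libraries. For complex IV the ratios were 6.91, 8.45 and 6.65 in HKO PA, 3.81, 11.7 and 10.6 in HKO BSA, 2.77, 2.78 and 3.43 in Flox PA, and 4.04, 4.60 and 6.89 in Flox BSA. For complex V the 2 mitochondrial genes had at most 0.194 reads for each nuclear read. How RNA was selected before sequencing was not tested for its part in these ratios.

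**Figure D5:**
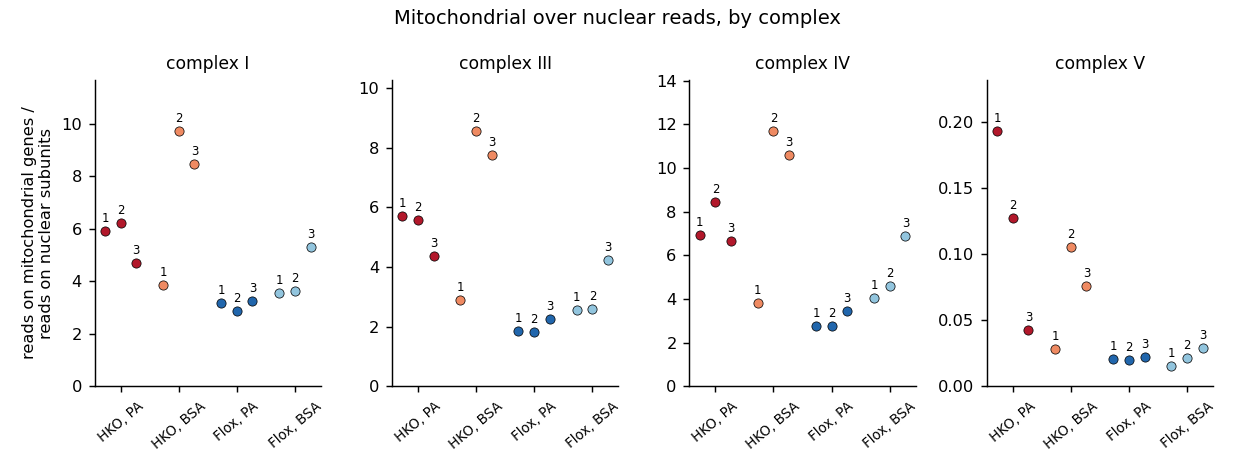
Reads on mitochondrially encoded genes divided by reads on the nuclear subunits of the same complex (y axis, from 0) in each library, in the order HKO PA, HKO BSA, Flox PA and Flox BSA; small numbers are library numbers. HKO BSA libraries 2 and 3 lie highest in complexes I, III and IV, and HKO BSA library 1 lies near the Flox libraries in each complex.

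Other genes of the pathway are counted beside the shares of all tested genes that rose in HKO, 16.9% in PA, 11.2% in PA without HKO PA library 1, and 9.63% in BSA. Of 17 tested complex I assembly factors 5 rose and 0 fell in PA, 4 rose without that library, and 2 rose in BSA. Ndufaf5, which hydroxylates a core subunit, was at 7.68 ± 1.45 FPKM in HKO PA and 2.99 ± 0.16 in Flox PA (SD, n = 3 each). Ndufaf2, an assembly chaperone, was at 13.4 ± 3.70 FPKM in HKO PA and 7.10 ± 0.74 in Flox PA (SD, n = 3 each). Of 33 assembly factors of complexes II to V, 10 rose in PA, 5 without that library and 3 in BSA, with Sdhaf4, which helps flavinylated Sdha, at 17.9 ± 4.74 FPKM in HKO PA and 8.49 ± 1.34 in Flox PA (SD, n = 3 each). Of 18 electron carriers and ubiquinone synthesis genes 7 rose in PA, 5 without that library and 2 in BSA. Cytochrome c, Cycs, had a log2 fold change of 1.03 and Etfa, which feeds electrons from fatty acid oxidation into the chain, 1.14 in PA (limma, adjusted p 0.000604 and 0.00381).

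Regulators of respiratory genes were mixed: in PA 1 of 13 tested rose, Tfb2m, a mitochondrial transcription factor, and 3 fell, among them Pprc1, a coactivator of the PGC-1 family, at 7.51 ± 2.26 FPKM in HKO PA and 12.9 ± 1.40 in Flox PA (SD, n = 3 each). Without HKO PA library 1, 2 fell and Tfb2m did not pass. In BSA 1 fell, Hif1a. Of 28 mitochondrial proteins outside OXPHOS 5 rose and 2 fell in PA, 2 rose and 1 fell without HKO PA library 1, and 3 rose in BSA, shares close to those of all genes. Fh1, fumarase, rose by 0.72 and Ogdh, of the citric acid cycle, fell by 0.85 in PA on the log2 scale. Mitochondrial ribosomal proteins rose in 44 of 77 in PA (median 0.51), 30 without HKO PA library 1 (median 0.37), and 9 of 77 in BSA. Cytosolic ribosomal proteins, other short and abundant transcripts with a median of 754 bases, rose in 49 of 80 in PA (median 0.59), and in 29 (median 0.37) without HKO PA library 1. In BSA 0 of 80 passed by limma or by limma-voom and 5 had an unadjusted p under 0.05, while 16 of 78 OXPHOS subunits passed. The comparisons in PA and BSA use different libraries, while PA against BSA and the interaction share libraries with both, and by limma no gene of these lists passed in those.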

How the data were processed

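RNA-seq of primary hepatocytes from HKO and Flox mice, each in PA and BSA, gave 12 libraries in 4 groups of 3. The authors deposited FPKM per gene, with gene lengths. The build was GRCm38 (mm10) per the submitters' processing notes, and no source used here names the aligner, counter or strand setting. FPKM times gene length gave whole reads (within 0.01 of a whole number, checked on values up to 1000 reads), and the deposited values imply a library size other than the read total. Genes averaging 1 FPKM or more were tested on log2(FPKM + 1) with limma 3.58.1 (R 4.3.3, trend, 4 group means), with Benjamini-Hochberg adjustment over all of them. Fold changes on that scale understate changes of low genes. Limma-voom ran on the computed reads. The code was tested on simulated data. Transcript lengths came from GENCODE M21, and copies (95% identity over 100 bases or more) from BLAST 2.17.0. Members and lists were chosen with earlier results of these data known. Every library's values are given for the 2 passing members per complex that moved most in a comparison, or the 1 with the smallest p. They are also given for the member with the highest FPKM and for Sdh genes. Paralog sets were described by level or share, with values in every library for some of their members. Other members were named after their values were seen. From each list the 2 that moved most were eligible.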

Additional observations from a re-analysis of the deposited data

How the results depend on the processing

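The count of members that passed between HKO and Flox in BSA moved most: it was 26 with transcript length and GC trends removed, an alternative chosen after seeing the data, 8 by limma-voom on the computed reads, and 34 without both HKO libraries numbered 1, against 16. With 1 library left out at a time it lay between 4 and 29, and the count in PA lay between 34 and 58, against 50. The count for PA against BSA lay between 0 and 1 in HKO and was 0 in each such fit in Flox and for the interaction. With only the groups compared in the fit, 1 member passed in Flox, Ndufv2, which was lower in PA. The cause of these shifts was not tested. Whether replicate numbers pair the libraries is not stated. Deviations from the group means correlated between -0.48 and 0.36 for same-numbered libraries of compared groups, and between -0.37 and 0.51 for different-numbered ones. With 3 libraries a group these values do not settle it. With the replicate block the counts were 59 in PA and 21 in BSA for HKO against Flox, and 0 for PA against BSA in HKO, in Flox and for the interaction. Without both HKO libraries numbered 1, 19.6% of all tested genes were higher in BSA. Such shares are not given here for the replicate block, for both trends removed or for only the groups compared. Nor are they given for fits with 1 library left out, apart from HKO PA library 1. Those counts do not show whether subunits moved apart from other genes. Of the members named by rule, 17 results that passed were refitted in 18 settings each, and none changed direction. Of these, Atp5c1 in BSA did not pass in 11 of 18, Ndufa1 in BSA in 2, and Atp5o, Cox7b and Uqcrh in BSA and Cox7c in PA in 1 each. Other members named in the text were not tabled that way. With 3 libraries a group, differences near the spread of the HKO libraries could not be resolved.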

Other observations

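In Flox, the log2 fold change of the 78 subunits between PA and BSA followed GC content, with a Spearman's rho of 0.50, and the 9736 tested genes with a transcript had 0.48; these points share libraries and base composition, and no subunit passed in that comparison by limma. In HKO the same relation was -0.14 over the subunits and -0.24 over all genes. For HKO against Flox it was -0.33 and -0.36 in PA, and -0.02 and 0.03 in BSA. For the interaction it was -0.45 and -0.51.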
